A study of Nasonia vitripennis with 23 samples.

Results

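Lop1 is the gene that codes for the long wavelength opsin of the parasitoid wasp Nasonia vitripennis, and it was taken as the single row with this symbol among the 14131 genes of the deposited table of counts. Its relation to the odorant receptors was described with the 214 genes whose symbol is Or followed by a number. RNA came from whole heads of females of the AsymC strain, a wild-type strain that had been cured of Wolbachia, and each library was made from 12 heads pooled within a group. All females had been given a host and then honey solution before the test, and they were then left with 3 hosts for 3 h. The single-foundress females were alone (8 pools), the five-foundress females were each with 4 co-foundresses (7 pools) and the 10-foundress females were each with 9 (8 pools). The co-foundresses came from the red-eye mutant strain STDR, and heads were taken only from AsymC females that produced offspring. The pool, and not the single wasp, was the unit of replication. The authors dropped single-foundress replicate 2 as an outlier before testing, and the tests here likewise use 22 pools. The experiment was spread over 3 days, but the labels do not give the day of a pool, and its part in the values was not tested.

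Opsins are receptors of the G protein-coupled family that bind a retinal chromophore and change shape when it absorbs light. In insects they lie in the microvilli of photoreceptor cells, where the activated opsin signals through Gq and phospholipase C to channels of the TRP family. In bees, the long wavelength opsin is made by most photoreceptors of each unit of the compound eye and sets their sensitivity to green light, while ultraviolet and blue opsins are made by the others. Odorant receptors are membrane proteins of the sensory neurons of the antenna, where each neuron makes a tuning receptor together with a shared co-receptor. Transcripts of Lop1 and of the odorant receptors in a head library are therefore read here as signals of the eye and the antenna. Both organs were pooled with the brain in these samples, and where in the head either transcript was made was not tested. In RNA from whole heads, fewer cells of a type and less RNA per cell cannot be told apart.

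The sum of counts ranged from 25194329 to 69696501 among the 22 pools and was 52427768 in single-foundress replicate 2. Over the 77 pairs of libraries of the same group, chi-square per degree of freedom was between 31.3 and 623, so that none of these pairs was alike within sampling noise. Synaptotagmin (Syt1), a protein of synaptic vesicles, was present in every one of the 22 pools at between 211 and 320 CPM (counts scaled to the library size with TMM factors).

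Lop1 was among the most heavily sequenced genes of the heads. It took 0.876% ± 0.160 of all counted reads (SD, n = 22 pools), from 206357 to 581603 reads per library. Only LOC100122102, which has no name in the table, had a higher mean share, with 4.73% ± 1.98 (SD, n = 22). LOC100115165 followed Lop1 with 0.794% ± 0.115, LOC100118179 with 0.683% ± 0.220 and LOC100114467 with 0.533% ± 0.152 (SD, n = 22 each), and Lop1 was within its SD of the first of these, LOC100115165. Within single libraries Lop1 held the second place in 12 of the 22 pools, the third in 8, the fourth in 1 and the sixth in 1. These are shares of reads that were not divided by transcript length, and they give no order of the number of RNA molecules.

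The first question was whether Lop1 differed with the number of foundresses. In the single-foundress group its share of the counted reads lay between 0.747% and 1.09%, with a median of 0.947% (n = 7). In the five-foundress group it lay between 0.587% and 1.14% with a median of 0.839% (n = 7), and in the 10-foundress group between 0.518% and 1.10% with a median of 0.828% (n = 8). The ranges of the 3 groups overlapped. The mean share was 0.924% ± 0.123 with a single foundress, 0.872% ± 0.169 with 5 and 0.837% ± 0.188 with 10 (SD, n = 7, 7 and 8), and these means differed by less than the SD of any group. Two-sided exact permutation tests of the mean share gave p = 0.522 between the single- and five-foundress groups, p = 0.711 between the five- and 10-foundress groups and p = 0.314 between the single- and 10-foundress groups. Adjusted over these 3 comparisons, each exact p was 0.711.

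**Figure D1:**
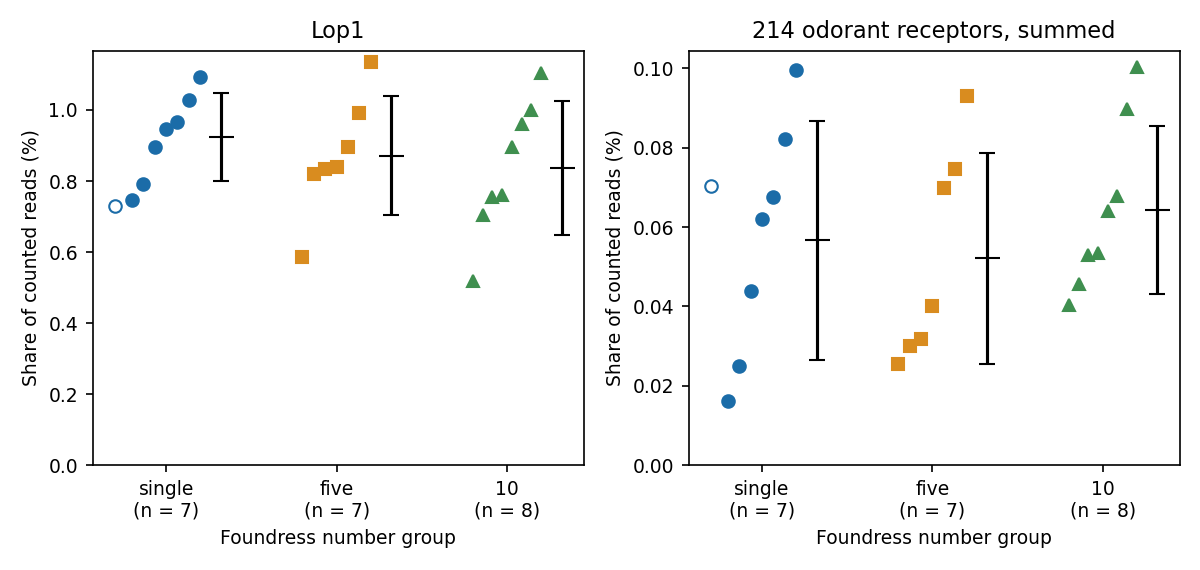
Share of the counted reads of each pool, in percent, that fell on Lop1 (left) and on the 214 odorant receptors summed (right), by foundress number group. Filled points are pools, placed in order of their value, bars are the mean ± SD of the 7, 7 and 8 pools tested, and the open circle is single-foundress replicate 2. Lop1 ranged from 0.518% to 1.14% with groups that overlapped, and the receptors from 0.0161% to 0.1002%.

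Lop1 was also tested in a fit over all 13599 genes with at least 1 read. With 5 foundresses against 1, edgeR's quasi-likelihood test gave a log2 fold change of -0.05 with a standard error of 0.17 and an adjusted p of 1. With 10 foundresses against 5 it was -0.08 with a standard error of 0.17, and the adjusted p from edgeR was 1. With 10 foundresses against 1 it was -0.12 with a standard error of 0.17 and an adjusted p from edgeR of 0.953, or a ratio of 0.918 with a 95% interval from 0.721 to 1.17. The intervals of the other 2 comparisons ran from 0.755 to 1.24 and from 0.744 to 1.21, so that a difference in Lop1 of the size of those bounds could not be told from none with these pools. The test of overall foundress number gave an adjusted p of 0.994 in edgeR. Of all genes tested, 0% passed an adjusted p of 0.05 in any of the comparisons, while the share with p below 0.05 before adjustment was 1.76%, 1.81% and 3.18% in the same order and 1.96% for overall foundress number. DESeq2 called 0 genes at an adjusted p of 0.05 in each of these comparisons, and 223, 204, 434 and 260 before adjustment. Lop1 was not among the genes called by edgeR, with an unadjusted p of 0.796, 0.649 and 0.472 in the fit across all genes in edgeR.

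The direction of the smaller differences turned when certain single pools were left out, in either the log2 fold change or the mean share but not in both. The log2 fold change between the single- and five-foundress groups was 0.03 without five-foundress replicate 11 and 0.01 without single-foundress replicate 7. The difference in mean share between these groups kept its direction, between -0.0967 and -0.00530 percentage points. The difference in mean share between the five- and 10-foundress groups was 0.0107 percentage points without 10-foundress replicate 23 and 0.00920 without five-foundress replicate 12. Their log2 fold change kept its direction, between -0.17 and -0.00264. The difference between the single- and 10-foundress groups kept its direction whichever pool was left out, with log2 fold changes between -0.22 and -0.07.

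Most of the variation of Lop1 lay between pools of the same foundress group. The difference between groups made up 5.34% of the variance of its share over the 22 pools. Groups drawn at random would also differ somewhat, so that this value does not measure an effect of foundress number. The coefficient of variation between pools was 18.3%, whereas counting error alone would give between 0.131% and 0.220% at these depths. In single-foundress replicate 7, with 27953555 counted reads, the 95% Wilson interval of the share was 1.09% to 1.10%, which covers counting error only. The 2 lowest pools were 10-foundress replicate 23 with 0.518% and five-foundress replicate 11 with 0.587%, and the highest was five-foundress replicate 12 with 1.14%. This spread was near the middle of those of other head transcripts, since 40.3% of the 9301 genes that averaged 100 counts or more and 44 of the 100 genes with the highest share had a lower coefficient of variation. Single-foundress replicate 2 stood at 0.731%, just below the lowest of the other pools of its group. With that pool included the mean of the group was 0.9002% ± 0.133 (SD, n = 8).

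Pools that had been sequenced more deeply tended to a lower level of Lop1. Over the 22 pools, log2 CPM of Lop1 and the log2 of the total of counts had a Pearson r of -0.50 (permutation p = 0.0182, 0.0726 adjusted over the 8 relations tested) and a Spearman rho of -0.50 (permutation p = 0.0197, adjusted 0.0788). Without the 2 pools farthest from the median depth, five-foundress replicates 16 and 11, r was -0.52 (permutation p = 0.0185). The relation did not pass the adjusted threshold. The part of depth in the values of Lop1 was not tested further.

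The second question was how the signal of the eye, read from Lop1, went with that of the antenna, read from the odorant receptors. The 214 receptors together took 0.0580% ± 0.0253 of the counted reads (SD, n = 22), and 211 of them had at least 1 read. Their summed share lay between 0.0161% and 0.0996% with a median of 0.0619% in the single-foundress group (n = 7). It lay between 0.0255% and 0.0930% with a median of 0.0400% in the five-foundress group (n = 7) and between 0.0404% and 0.1002% with a median of 0.0588% in the 10-foundress group (n = 8). The receptors thus varied far more between pools than Lop1 did, by 6.19 times from the lowest to the highest pool on the scale of TMM-scaled CPM against 2.16 times for Lop1. On the log2 scale the SD over pools was 0.73 for the receptors and 0.29 for Lop1.

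The receptors moved together from pool to pool. Of the 54 receptors that averaged 100 counts or more, which held 72.9% of all receptor reads, 50 had a Pearson r of at least 0.7 with the sum of the other receptors over the 22 pools, and the median r was 0.92. Or1, the receptor with the most reads (20.3% of the receptor counts), ranged from 14.3 to 271 CPM, and its r with the other receptors was 0.83. Or217, Or245 and Or243 followed with 3.11%, 2.81% and 2.44% of the receptor counts and an r of 0.91, 0.96 and 0.98 with the other receptors. The sum of the receptors is therefore a common signal and not that of a single gene.

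No relation of Lop1 to this signal passed the test. Its Pearson r with the summed receptors was -0.29 over the 22 pools (permutation p = 0.192, adjusted 0.307), with a 95% interval from -0.63 to 0.15, and Spearman's rho was -0.25 (permutation p = 0.265, adjusted 0.424). Without the 2 pools farthest from the median receptor level, single-foundress replicate 8 and five-foundress replicate 12, r was -0.18 (permutation p = 0.458). Within groups r was -0.25 in the single-foundress group (exact p = 0.589, n = 7), -0.49 in the five-foundress group (exact p = 0.277, n = 7) and -0.06 in the 10-foundress group (exact p = 0.888, n = 8). Spearman's rho was -0.11, -0.43 and -0.02 in the same order. The sign was negative in each group and none passed the test. The interval of the pooled r includes moderate negative values and no positive value above 0.15.

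**Figure D2:**
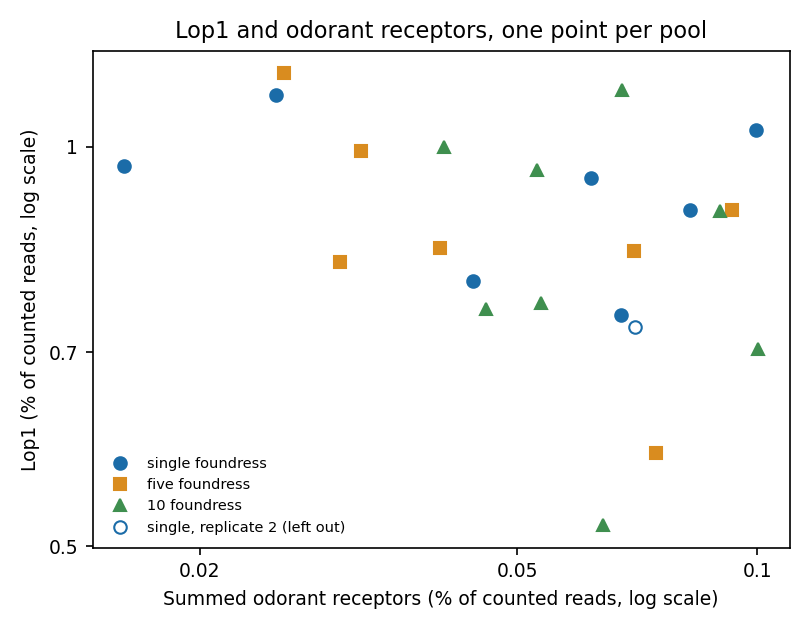
Lop1 against the summed odorant receptors, each in percent of the counted reads of a pool on log scales, with a point per pool and a symbol per foundress number group (the open circle is single-foundress replicate 2). The points are widely scattered, with a Pearson r of -0.29 over the 22 pools on TMM-scaled values, and pools with the same receptor level differ in Lop1 by nearly its whole range.

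Single pools show how loose the relation was. Single-foundress replicate 8 had the lowest receptor share, 0.0161%, and a Lop1 share of 0.967%. Five-foundress replicate 12 combined 0.0255% of receptors with the highest Lop1 share. In contrast, 10-foundress replicates 23 and 24 had like receptor shares of 0.0640% and 0.0677%, but 0.518% and 1.10% of Lop1. The number of receptor reads for every 1000 reads of Lop1, a measure of antenna against eye, ran from 16.6 in single-foundress replicate 8 to 142 in 10-foundress replicate 18. Its median was 65.3 in the single-foundress (range 16.6 to 96.8, n = 7), 47.7 in the five-foundress (22.4 to 127, n = 7) and 65.8 in the 10-foundress group (40.5 to 142, n = 8), and the ranges overlapped.

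Single receptors had mostly weak negative values. Among the 54 receptors above, 47 had a negative r with Lop1, with a median of -0.19, against a median of -0.10 and a negative r in 54.7% of the 9300 other genes at that level. Since the receptors follow each other, these are not independent values. The lowest were Or141 with -0.58, Or162 with -0.54 and Or278 with -0.54, and the highest Or36 with 0.26 and Or35 with 0.24. For Or1, r was -0.32 with all 22 pools and -0.19 without the 2 pools with the lowest Lop1. OBP77, an odorant binding protein by its symbol, varied with the receptors (r = 0.85) and had an r of -0.12 with Lop1. The 3 genes with an OBP symbol, summed, had a Pearson r of -0.12 with Lop1 (permutation p = 0.611, adjusted 0.698) and a Spearman rho of -0.05 (permutation p = 0.818, adjusted 0.935). Nearly all of that sum was OBP77, with a mean of 1737 counts against 9.59 for OBP19 and 2.05 for OBP67. The summed value is therefore no result separate from that of OBP77. Odorant binding proteins without such a symbol were not included.

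The receptors were tested for foundress number in the same way. Of 211 odorant receptors tested in edgeR, 0 passed an adjusted p of 0.05 in any comparison. Before adjustment, 0 had a p below 0.05 between a single foundress and 5, where 0.831% of all genes were so called as higher and 0.934% as lower. Between 5 and 10 foundresses, Or25, Or180 and Or266 were higher and Or47 lower with 10, that is 4 receptors, against 1.14% of all genes higher and 0.669% lower. Between a single foundress and 10, Or66 was higher and Or47 lower with 10, that is 2 receptors, against 1.68% and 1.50% of all genes. DESeq2 called 0 receptors after adjustment, and 0, 4 and 4 before it. The 5 receptors named had few reads, none of them more than 58 in a library. Of 44 gustatory receptors tested, Gr13 (1 to 7 reads in a library) was higher with 10 foundresses than with either 5 or 1. Gr25 (4 to 44 reads in a library) was lower with 10 than with 1, both at an unadjusted p below 0.05 in edgeR. All had an adjusted p of 0.952 or 1 in edgeR. Of the 14 neuronal genes, the 2 tropomyosins, the 3 genes with an OBP symbol and the 3 hexamerins tested, 0 had a p below 0.05 before adjustment in any pair of groups.

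Among the 6 lists of tissue genes, the gustatory receptors had the highest r with Lop1. These receptors detect taste and contact chemicals on the mouthparts, legs and antennae. Their 46 genes summed to 0.00228% of the counted reads, and this sum had a Pearson r of 0.53 with Lop1 (permutation p = 0.0109, adjusted 0.0726) and a Spearman rho of 0.61 (permutation p = 0.00278, adjusted 0.0222). With plain CPM in place of TMM-scaled values, rho was 0.41 (permutation p = 0.0564), so that the rank relation no longer passed the test. Without 10-foundress replicate 23 and single-foundress replicate 1, the 2 pools farthest from the median of that sum, r was 0.39 (permutation p = 0.0901), so that the relation rests in part on these pools. Of the 3 gustatory receptors that averaged 100 counts or more, Gr3 and Gr6 varied with Lop1. Gr6 ranged from 1.65 to 6.11 CPM and had an r of 0.80 with Lop1, Gr3 from 5.71 to 11.2 CPM with an r of 0.78, and the third, Gr2, had an r of -0.35. Gr6 and Gr3 had an r of -0.35 and 0.03 with the summed odorant receptors, and Gr2 one of 0.56.

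The neuronal list showed no single relation. It holds Syt1, Para, the voltage-gated sodium channel of axons, and 12 subunits of nicotinic acetylcholine receptors, the main fast excitatory receptors of the insect brain. Its summed level had a Pearson r of 0.39 with Lop1 (permutation p = 0.0727, adjusted 0.194) and a Spearman rho of 0.38 (permutation p = 0.0798, adjusted 0.160). Its members differed among themselves. The subunits nAChRa8 (99.7 to 257 CPM), nAChRa11 (77.0 to 173 CPM) and nAChRa1 had an r of 0.83, 0.74 and 0.69 with Lop1. Syt1 had an r of 0.25, nAChRa2 one of 0.03, and Para and nAChRa4 had -0.45 and -0.46. The members thus ranged from a close positive to a moderate negative r.

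In 2 short lists the members also parted. Tropomyosins, which regulate contraction along the thin filaments of muscle, gave a summed r of 0.06 with Lop1 (permutation p = 0.797, adjusted 0.797) and a Spearman rho of 0.09 (permutation p = 0.7004, adjusted 0.934). Tm1, with a mean share of 0.0636% against 0.00200% for Tm2, had an r of 0.03, and Tm2 had 0.77. The hexamerins, storage proteins made by the fat body, gave a summed r of 0.35 (permutation p = 0.113, adjusted 0.226) and a Spearman rho of 0.46 (permutation p = 0.0339, adjusted 0.0904). Hex109 (3.60 to 11.2 CPM) had an r of 0.84 with Lop1, Hex83 one of 0.75 and Hex70b one of -0.36. LOC100122102, which held the largest share of the reads, had a Pearson r of -0.15 (permutation p = 0.501, adjusted 0.668) and a Spearman rho of 0.02 (permutation p = 0.943, adjusted 0.943) with Lop1.

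**Figure D3:**
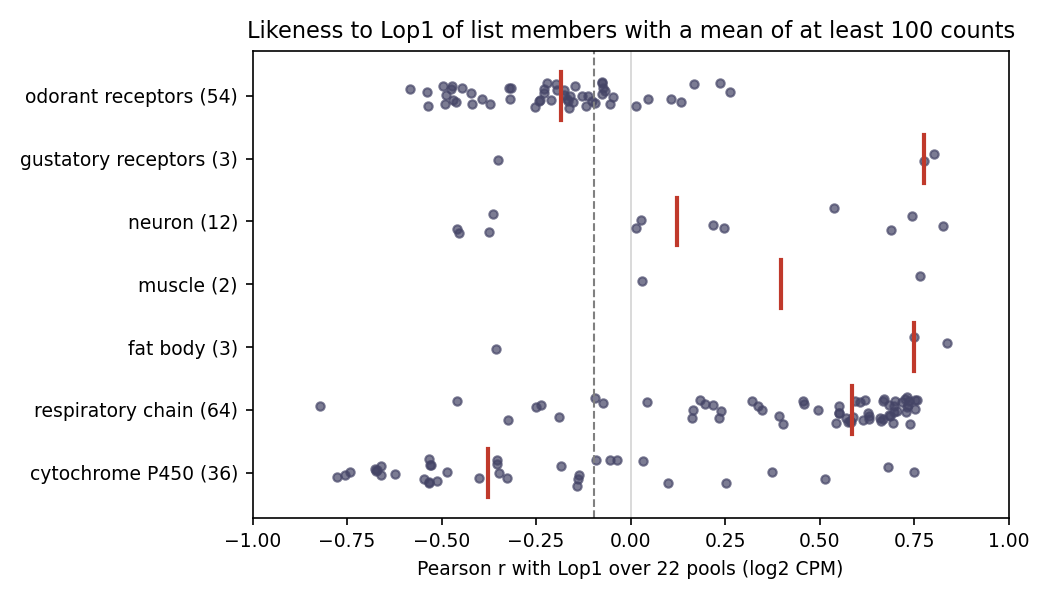
Pearson r with Lop1 over the 22 pools, on log2 CPM, of each list member that averaged 100 counts or more. Each point is a gene, red bars are the median of a list, the number of genes is in brackets and the dashed line is the median of all 9300 genes, -0.10. The odorant receptors lie mostly below 0, most respiratory chain genes above 0.5, and the cytochrome P450 genes mostly below 0.

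The genes most like Lop1 followed it closely in every group. Likeness was measured as the Pearson r of log2 CPM over the 22 pools among the 9300 other genes that averaged 100 counts or more. It is given as a description. Since the genes were picked on these same pools, their r within groups is no separate support. The highest was that of LOC100119443 with 0.95, followed by LOC100117548 and LOC100114612 with 0.94, LOC100118753 and LOC100680193 with 0.93, LOC100118309 with 0.93, LOC100115434 with 0.92, and LOC100121718, LOC100679265 and LOC103317435 with 0.91. None of these carries a name in the table. LOC100119443 ranged from 1463 to 3498 CPM, that is 2.39 times against 2.16 times for Lop1. It had a median of 2662 CPM in the single-foundress, 2572 in the five-foundress and 2323 in the 10-foundress group. Its r with Lop1 was 0.88, 0.95 and 0.98 within the 3 groups and 0.92 without the 2 pools with the lowest Lop1. Over all 10 genes, r lay between 0.82 and 1.00 within the single-foundress, 0.85 and 0.98 within the five-foundress and 0.96 and 0.98 within the 10-foundress group. With the summed odorant receptors these 10 genes had an r between -0.48 and -0.12.

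At the other end stood genes that were low where Lop1 was high. LOC100117094 had the lowest r, -0.91, and lay between 11.7 and 25.2 CPM. It was followed by LOC100119568 with -0.88, LOC100118020 with -0.88, and LOC100123253 and LOC100120321 with -0.88. The r of LOC100117094, also picked on these same pools, was -0.99, -0.89 and -0.90 within the single-, five- and 10-foundress groups. With plain CPM in place of TMM-scaled values it was -0.81, while that of LOC100119443 was 0.94.

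**Figure D4:**
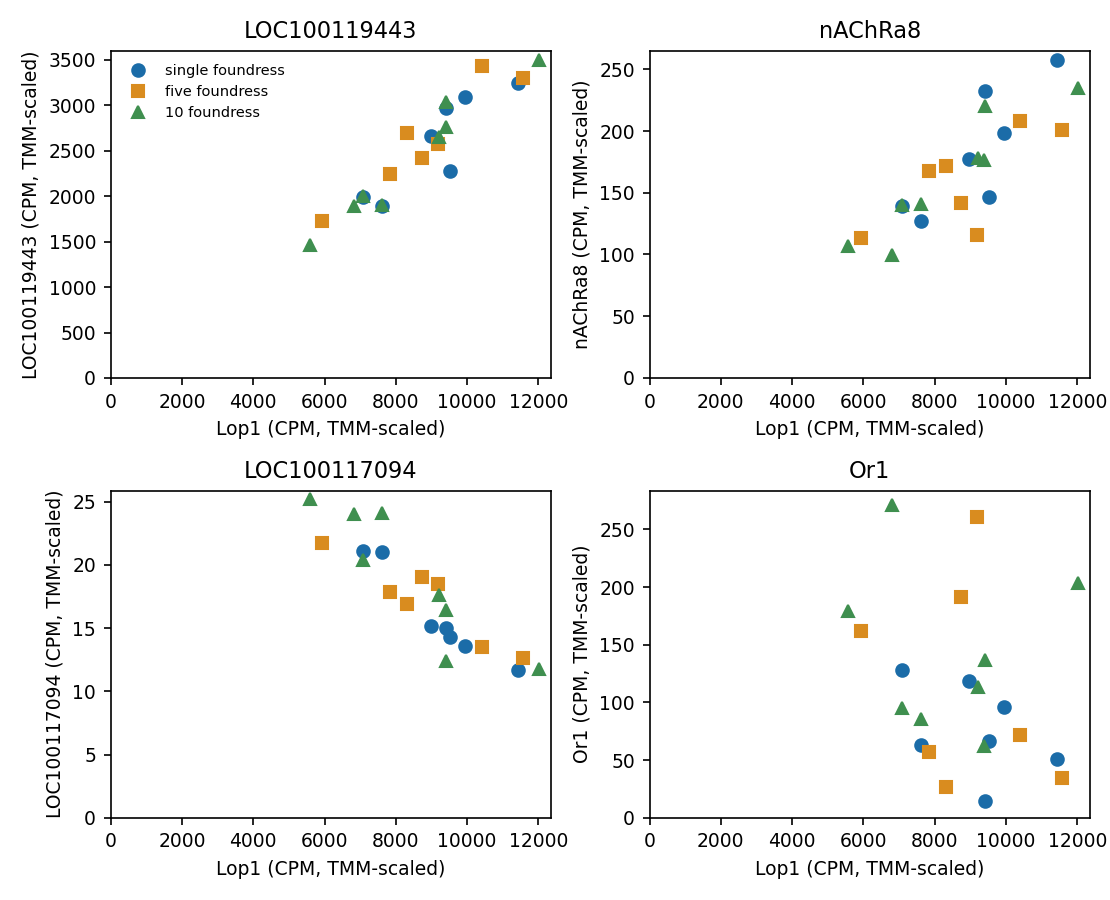
TMM-scaled CPM of 4 genes against that of Lop1, with a point for each of the 22 pools and a symbol for each foundress number group. LOC100119443 (r = 0.95) and nAChRa8 (r = 0.83) rise with Lop1, LOC100117094 (r = -0.91) falls, and Or1 (r = -0.32) is scattered, and in each panel the groups are intermixed.

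Such likeness was common and was not a property of a few genes. An r of at least 0.7 with Lop1 was found for 958 of the 9300 genes (10.3%) and one of -0.7 or below for 774 (8.32%). An r of at least 0.9 was found for 11 genes and one of -0.9 or below for 1. With group means subtracted the numbers at 0.7 were 984 and 759, and without the 2 pools with the lowest Lop1 they were 871 and 582. With plain CPM they were 790 and 452. Many genes of the head thus varied along with Lop1 between pools, also with group means subtracted.

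Among the genes with a symbol other than a number, ppo3, a prophenoloxidase of the melanization pathway, had the highest r with 0.85 (6.22 to 22.6 CPM), followed by Beat-ic with 0.84, Hex109, the germ plasm gene oskar with 0.83, the ligand-gated chloride channel subunit GRD with 0.83 and nAChRa8. Of the 2 entries of Shmt1, serine hydroxymethyltransferase of one-carbon metabolism, the one with fewer reads was among the lowest with -0.86 (1.03 to 28.5 CPM), and the other had -0.74. Mospd2 had -0.87 and Atp13a1 -0.86.

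In the gene order of the current RefSeq table, which is of another assembly than the counts, the nearest genes on either side of Lop1 that are also in the table of counts, LOC100679148 and LOC100122443, had an r of 0.57 and 0.78 with it. The next ones outward, LOC100122470 and LOC100678713, had 0.15 and -0.73.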

How the data were processed

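The authors deposited raw counts of reads per gene for 23 libraries of polyadenylated RNA. Before that, the authors filtered and trimmed reads with cutadapt 1.8.3, aligned them to the Nvit 2.1 genome with TopHat2 2.0.14 and counted them per gene with HTSeq (given as version 6.0.1), whose union setting leaves out reads that hit several genes. Whether strand was used in counting is not given in the sources used here, so that counts of overlapping genes are uncertain. Counts of near-identical copies are uncertain as well. Groups came from the sample titles.

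The quasi-likelihood test of edgeR 4.0.16 (R 4.3.3) was run on genes with at least 1 read, with TMM scaling, all 3 groups in one fit and Benjamini and Hochberg adjustment. DESeq2 1.42.0 was an alternative. A standard error is the size of the log2 fold change over the root of its F value. Correlations across pools used log2 CPM (a prior count of 2 for single genes), 100000 permutations in numpy 2.4.6, or all orders within groups, with intervals from Fisher's transformation. Scripts were tested on simulated data. Of 14131 IDs, 11586 matched the RefSeq table of assembly Nvit_psr_1.1, which is not the assembly of the counts. Its gene order alone was used, to name the neighbours of Lop1, and no coordinates are given. It holds no product names, so that lists rest on symbols. No symbol was matched for other opsins, phototransduction, the odorant co-receptor by name or glia. Whether the co-receptor is among the genes named Or and a number, Or1 included, was not looked up. No eye pigment list was used, although 4 entries carry the symbol white, with mean counts between 1.36 and 17.6.

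Genes were named if they were Lop1, had 1 of the 5 highest shares, 1 of the 10 highest or 5 lowest r with Lop1, 1 of the highest mean counts of a list, or an unadjusted p below 0.05 within a list of tissue genes. For the lists added later, such genes were counted and not named. Other genes with a symbol, list members with a high or low r, the RefSeq neighbours and the respiratory chain, P450 and other enzyme lists were added after their values had been seen, and members and lists were chosen with earlier results of these data known.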

Additional observations from a re-analysis of the deposited data

Results flagged for a closer look

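Of 96 sets of values of single groups that were examined (Lop1, the receptors, the tissue lists and the genes named for their likeness), 1 held a pool far from the others by Dixon's ratio, where about 1 in 20 would be so by chance. The summed share of the tropomyosins was 0.110% in 10-foundress replicate 17, against 0.0451% to 0.0638% in the other 7 pools of its group, a gap of 0.712 of the range of the group. Lop1 stood at 0.894% in that pool, in the middle of its group. For Lop1 itself no pool stood apart in any group.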

How the results depend on the processing

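No difference in Lop1 between groups passed the test under any alternative run. In edgeR and DESeq2, with other size factors, a stricter filter, the earlier form of the fit, all 23 libraries or the groups compared alone, its log2 fold changes lay between -0.06 and -0.01, -0.09 and -0.07, and -0.13 and -0.09 in the single- versus five-, five- versus 10- and single- versus 10-foundress comparisons. With each library left out in turn they lay between -0.131 and 0.0316, -0.17 and -0.00264, and -0.22 and -0.07. The adjusted p of overall foundress number was between 0.927 and 1 throughout, and 0.962 for a numeric trend. The difference in mean share between the five- and 10-foundress groups lay between -0.0822 and 0.0107 with a library left out. The r of Lop1 with the receptors lay between -0.38 and -0.21 both over the 8 other settings and with each library left out, and the smallest permutation p was 0.0808. The settings without Or1 and without the 2 pools of lowest Lop1 were chosen after seeing the data. With all 23 libraries, r with the neuronal list was 0.44 (permutation p = 0.0380). With plain CPM, r with the tropomyosins was -0.0451, and rho with the gustatory receptors was 0.41 (permutation p = 0.0564). On the same scale, r with LOC100122102 was -0.36 (permutation p = 0.0954). The causes of these shifts were not tested. No paired analysis was possible because the groups share no replicate numbers. Counting error was small beside the spread between pools for Lop1, whereas most odorant receptors averaged under 100 counts, and their r with Lop1 was not computed one by one.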

Other observations

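Subunits of the mitochondrial respiratory chain, which makes most of the ATP of active neurons and photoreceptors, tended to vary with Lop1. Of the 64 entries of this list with a mean of at least 100 counts, 40 (62.5%) had an r of at least 0.5 with Lop1 over the 22 pools, against 22.6% of all 9300 genes, and the median r was 0.58 against -0.10. The median was 0.55 for complex I (31 entries), 0.69 for complex III (9 entries), 0.58 for complex IV (7 entries) and 0.66 for the ATP synthase (13 entries), whereas it was -0.00290 for the 4 entries of complex II. Cyc1l, Ndufb7 and Ndufa12 had 0.76, 0.75 and 0.75. Ndufs1, a large subunit of complex I, has 2 entries in the table, and they had an r of -0.82 (mean of 9201 counts) and 0.16 (mean of 2655 counts). With the summed odorant receptors, the median r of the list was -0.04. Of the 69 entries tested in edgeR, 0 had an unadjusted p below 0.05 in any comparison of foundress numbers, against 1.76%, 1.81% and 3.18% of all genes between 1 and 5, 5 and 10, and 1 and 10 foundresses. This list was chosen after its values had been seen, and its genes are not independent of each other.

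The cytochrome P450 genes, which oxidize hormones, toxins and odorants, leaned the other way. Of 36 with a mean of at least 100 counts, 16 (44.4%) had an r of -0.5 or below with Lop1, against 23.8% of all genes, and the median was -0.38. CYP4AB23, CYP9P5 and CYP6CK10 were lowest with -0.78, -0.75 and -0.74, and CYP9AG8P was highest with 0.75. Without the 2 pools with the lowest Lop1 the median was -0.22. In edgeR, 2, 1 and 2 of the 44 P450 genes tested had an unadjusted p below 0.05 in these comparisons. This stands against 1.76%, 1.81% and 3.18% of all genes. The same counts, beside the same shares of all genes, were 0, 6 and 7 of 51 serine proteases and homologues and 2, 0 and 3 of 43 cuticular proteins. They were 1, 0 and 0 of 29 glutathione transferases and carboxylesterases, and 0, 0 and 2 of 16 yellow and major royal jelly proteins. In each of these lists 0 genes had an adjusted p below 0.05 in edgeR. The median r was 0.23 for 12 cuticular proteins, -0.17 for 18 serine proteases and homologues, -0.17 for 26 glutathione transferases and carboxylesterases and -0.15 for 11 yellow and major royal jelly proteins. Within the cuticular proteins CPR49 reached 0.80 and CPR34 stood at -0.59, and the latter had an r of 0.74 with the odorant receptors.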
